A study of Mus musculus with 12 samples.

Results

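The 10 genes described here encode the enzymes and helpers that modify, trim and crosslink collagen: *Lox*, *Loxl1*, *Loxl2*, *Loxl3*, *Loxl4*, *Pcolce*, *P4ha1*, *P4ha2*, *Plod2* and *Serpinh1*. They were taken by symbol from the 32419 genes that at least 1 of the deposited tables lists, and all 10 were listed with reads in every library. RNA was measured by RNA-seq in cultured primary brain endothelial cells (BECs) from C57BL/6 mice (on a C57BL/6J background in the study's methods). *Cort*-/- BECs came from mice that lack the gene of cortistatin, a neuropeptide related to somatostatin, and *Cort*+/+ BECs from wild-type mice. Cells of both genotypes were kept for 24 h in normoxia and normoglycaemia (NX/NG, 21% O2 and 5.5 mM glucose) or for 4 h at 1% O2 without glucose and serum followed by 20 h back in NX/NG (oxygen and glucose deprivation with reoxygenation, OGD-R). The labels call these environments NM and OGD and also name a stroke mouse model for every sample, whereas the study's methods describe cultures that were exposed in vitro. Of 12 samples listed, 10 were used, each a pool of 3 mice: *Cort*+/+ replicates 1, 2 and 3 in both environments, *Cort*-/- replicates 1 and 2 in NX/NG, and *Cort*-/- replicates 1 and 3 after OGD-R. The mice were 8 weeks old, and the cells isolated from brain microvessels were enriched by 60 h of puromycin.

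Collagen is made in the endoplasmic reticulum, where prolyl hydroxylases (*P4ha1* and *P4ha2* encode their catalytic subunits) hydroxylate prolines so that the triple helix is stable at body temperature, lysyl hydroxylase 2 (*Plod2*) hydroxylates lysines of the telopeptides, and the chaperone HSP47 (*Serpinh1*) binds the folded helix until it leaves for the Golgi. Outside the cell, procollagen C-endopeptidase enhancer (*Pcolce*) speeds the removal of the C-propeptide by BMP1-like proteinases. The copper enzymes of the lysyl oxidase family (*Lox* and *Loxl1* to *Loxl4*) then oxidise lysines and hydroxylysines of collagen and elastin, and the aldehydes formed condense into covalent crosslinks. In brain vessels these crosslinks hold together the basement membrane and the perivascular matrix on which endothelial cells, pericytes and smooth muscle cells rest. Prolyl and lysyl hydroxylases need oxygen as a substrate, and several of these genes are known targets of hypoxia-inducible factors.

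The reads on genes recovered from the deposited values came to 12386048 to 12390428 per library, an almost equal depth for which no reason is given in the sources used here. The labels and the study's methods also differ in the library kit, the RNA input and the read length, so which of them describes these libraries is not known. Levels are given in RPKM, reads scaled by gene length and library size, so that genes can be compared with each other. *Cort* itself had 0 reads in the 4 *Cort*-/- libraries, but also in 2 of 6 *Cort*+/+ libraries, and at most 2 reads in the others, so its level could not check the genotype labels. The ribosomal transcript *Rn18s-rs5* made up 7.64% to 15.8% of the reads of 8 libraries but 0.0775% and 0.0951% of those of *Cort*+/+ OGD-R replicate 1 and *Cort*-/- OGD-R replicate 3, and results after OGD-R are given with and without these. All 10 endothelial markers examined, *Cldn5*, *Pecam1* and *Cdh5* among them, were at 1 RPKM or more in every library and summed to 1038 to 1499 RPKM. Under NX/NG the endothelial sum was higher in *Cort*-/- libraries (1317 and 1464 RPKM) than in *Cort*+/+ libraries (1038, 1064 and 1294 RPKM). There 9 of the 10 markers had a log2 fold change above 0 (median 0.20). At an unadjusted p under 0.05, 1 marker, *Emcn*, was higher (0.36, limma FDR = 0.344), beside 5.03% of all genes tested. Smooth muscle transcripts, mostly *Acta2* and *Tagln*, summed to 995 to 1777 RPKM over the same libraries, and in bulk RNA fewer cells of a type cannot be told apart from less RNA per cell.

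The 10 genes spanned a wide range of levels, in nearly the same order in each group. *Serpinh1* was highest, at 241 to 295 RPKM over the 10 libraries, and *Loxl2* was next, at 30.1 to 49.6 RPKM, with no overlap between the neighbours in any group. *Pcolce* (12.2 to 37.3 RPKM), *P4ha1* (20.5 to 27.2 RPKM) and *Plod2* (12.7 to 22.3 RPKM) came after these in every group, followed by *Lox* (6.999 to 18.8 RPKM), *Loxl1* (6.71 to 18.5 RPKM), *P4ha2* (7.80 to 10.4 RPKM) and *Loxl3* (5.12 to 11.3 RPKM) in an order that varied between groups. *Loxl4* was the lowest in 3 groups, at 2.72 to 7.38 RPKM over all libraries, but in *Cort*-/- BECs under NX/NG it stood above *Loxl3*. The order of *Pcolce* and *P4ha1* depended on the genotype: the mean of *Pcolce* was higher in both *Cort*+/+ groups and that of *P4ha1* in both *Cort*-/- groups, although their libraries overlapped in *Cort*+/+ BECs under NX/NG and in *Cort*-/- BECs after OGD-R. *Plod2* and *Lox*, and *Lox* and *Loxl1*, overlapped as neighbours wherever they stood next to each other. From the lowest to the highest library *Pcolce* varied 3.06-fold, *Loxl1* 2.77-fold, *Loxl4* 2.71-fold, *Lox* 2.68-fold and *Loxl3* 2.21-fold, against 1.34-fold for *P4ha2*, 1.33-fold for *P4ha1* and 1.22-fold for *Serpinh1*. At 137 to 9580 reads per gene and library, each of the 10 was well above the level at which single reads decide a value.

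**Figure D1:**
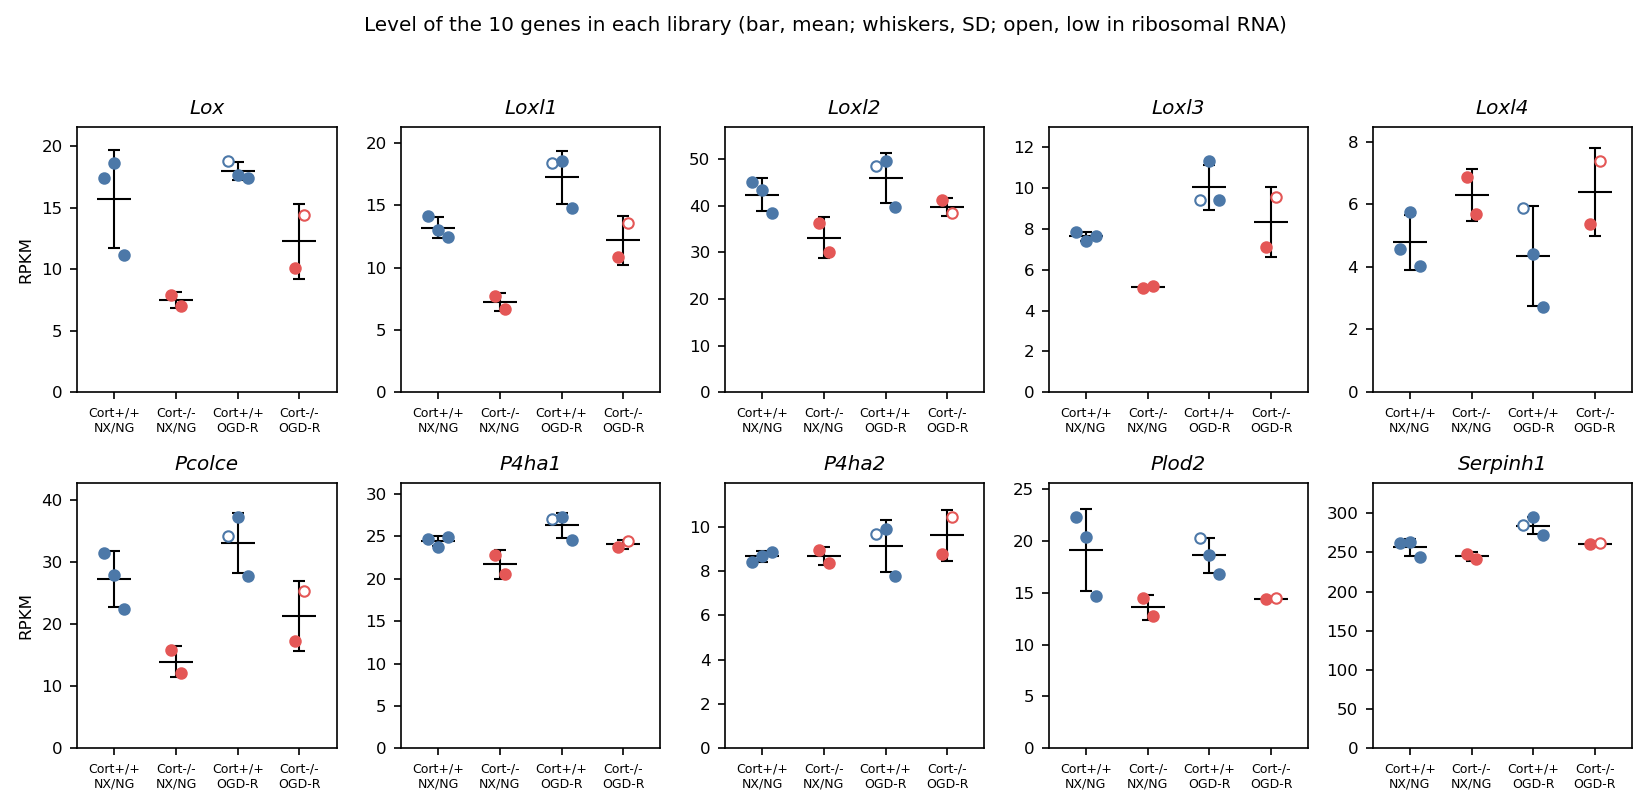
RPKM of each of the 10 genes (y axis, from 0) in the 4 groups of libraries (x axis); points are libraries, the bar is the group mean and whiskers are the SD, with open points for the 2 libraries low in ribosomal RNA. *Lox*, *Loxl1*, *Loxl3* and *Pcolce* lie lower in both *Cort*-/- NX/NG libraries than in the 3 *Cort*+/+ libraries, while *P4ha2* and *Serpinh1* overlap.

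Under NX/NG, the effect of cortistatin deficiency was asked by comparing 2 *Cort*-/- with 3 *Cort*+/+ libraries. Transcripts of *Lox*, *Loxl1*, *Loxl3* and *Pcolce* were 1.48-fold to 2.05-fold lower in *Cort*-/- BECs, those of *Loxl2* and *Plod2* 1.28-fold and 1.39-fold lower, and those of *P4ha1* 1.13-fold lower, with no overlap between the genotypes for these 7 genes. *Loxl4* had a higher mean in *Cort*-/- BECs, and *P4ha2* and *Serpinh1* differed by less than their spread. At a false discovery rate (FDR) of at most 0.05, limma on log2(RPKM + 0.1) called 0 of 15695 genes (percent called, 0) and none of the 10, while 1968 genes had an unadjusted p under 0.05. Among the 10, 6 were lower and 0 higher at that level, where 7.51% of all genes tested were lower and 5.03% higher. Leaving out each library in turn, the log2 fold changes of these 6 stayed below 0, but that of *P4ha1* came as near to it as -0.10. The counts at that level, of the 10 and of all genes, changed with the library left out. The 7 of 10 that were lower without overlap stand beside 16.5% of all genes tested. The median log2 fold change was -0.41 over the 10 genes and 0.01 over all genes tested. limma-voom on the reads recovered from the RPKM called 54 genes (0.344%), of which 49 were lower (0.312%), and *Loxl1* and *Loxl3* were among those.

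*Lox*, on chromosome 18 of GRCm38, encodes the founding lysyl oxidase, which crosslinks collagen I and III and elastin. Its level was 7.91 and 6.999 RPKM in *Cort*-/- replicates 1 and 2, and 17.4, 18.6 and 11.1 RPKM in *Cort*+/+ replicates 1, 2 and 3. Both *Cort*-/- libraries lay below the lowest *Cort*+/+ library, which stood well under the other two of its group. The log2 fold change was -1.03 (SE 0.24, limma FDR = 0.272), the largest decrease among the 10, and it ranged from -1.26 to -0.89 over the alternatives. With limma-voom the FDR was 0.0970.

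*Loxl1* (chr9:58287738-58313186, minus strand) encodes the family member known for elastic fibre assembly. It stood at 7.74 and 6.71 RPKM in *Cort*-/- libraries against 14.2, 13.0 and 12.5 RPKM in *Cort*+/+ libraries. The gap between the genotypes was wider than the spread within either. The log2 fold change was -0.86 (SE 0.09, limma FDR = 0.113), and limma-voom called it (FDR = 0.0253).

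*Loxl2* (chr14:69609068-69695834, plus strand), whose product crosslinks collagen IV of basement membranes, had the highest level of the family, at 36.3 and 30.1 RPKM in *Cort*-/- and 45.2, 43.5 and 38.4 RPKM in *Cort*+/+ libraries. The nearest libraries of the genotypes were 36.3 and 38.4 RPKM, so the groups were apart by little. Its log2 fold change was -0.36 (SE 0.11, limma FDR = 0.343).

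*Loxl3* (chr6:83034173-83052562, plus strand), which has been linked to fibronectin and collagen matrix assembly, was measured at 5.12 and 5.18 RPKM in *Cort*-/- and 7.87, 7.42 and 7.67 RPKM in *Cort*+/+ libraries. The libraries of a genotype were close to each other and the genotypes clearly apart. The log2 fold change was -0.56 (SE 0.06, limma FDR = 0.119), called by limma-voom (FDR = 0.0369). Of the 4603 exonic bases of *Loxl3*, 535 (11.6%) lie opposite exons of *Htra2* on the other strand; whether strand was used in the counting is not given in the sources used here, so reads of *Htra2* could not be separated from its value.

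*Loxl4* (chr19:42593982-42612813, minus strand) was the only lysyl oxidase gene with a higher mean in *Cort*-/- BECs. It had 6.88 and 5.70 RPKM in *Cort*-/- and 4.57, 5.74 and 4.03 RPKM in *Cort*+/+ libraries. *Cort*+/+ replicate 2 lay just above *Cort*-/- replicate 2, so the groups overlapped. The log2 fold change was 0.40 with a 95% interval from -0.04 to 0.84 (limma FDR = 0.424).

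The make-up of the family differed between the genotypes in the same way. *Loxl2* gave 55.0% and 56.7% of the summed RPKM of the 5 genes in *Cort*-/- libraries and 49.3% to 52.1% in *Cort*+/+ libraries under NX/NG. *Loxl4* gave 10.4% and 10.8% against 5.12% to 6.51%, and *Lox* gave 12.4% and 12.8% against 15.1% to 21.1%. The sum of the 5 genes was 63.9 and 54.6 RPKM in *Cort*-/- and 89.2, 88.3 and 73.7 RPKM in *Cort*+/+ libraries. These shares and sums follow from the values above and were not tested again.

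**Figure D2:**
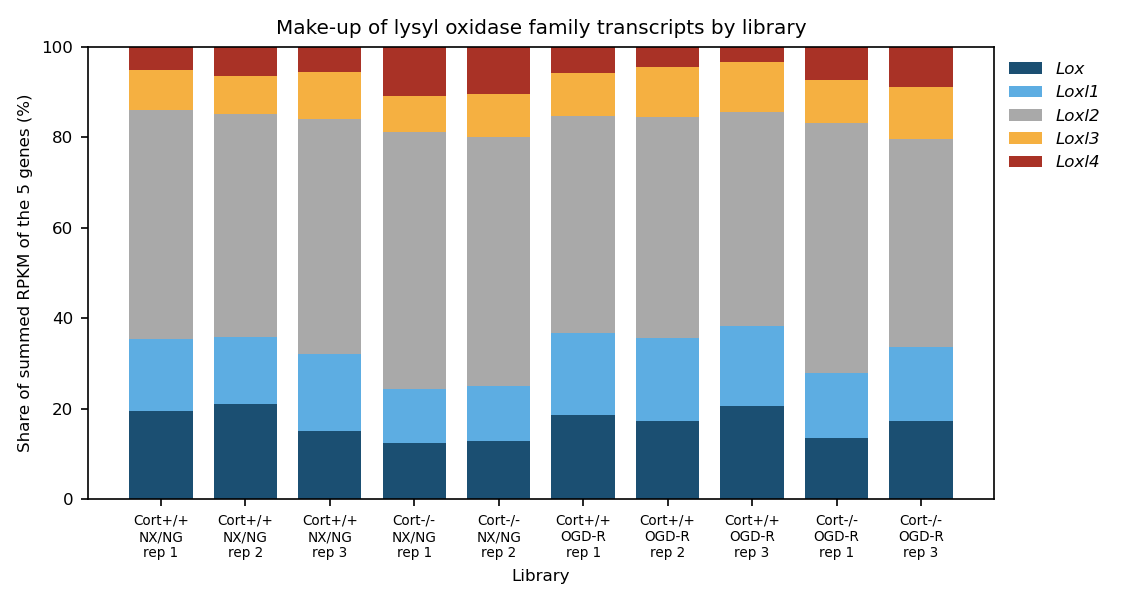
Share of the summed RPKM of the 5 lysyl oxidase genes (y axis, %) that each gene gave in each of the 10 libraries (x axis). *Loxl2* gives the largest share in every library, and *Loxl4* gives 10.4% and 10.8% in the *Cort*-/- NX/NG libraries but 5.12% to 6.51% in the *Cort*+/+ NX/NG libraries.

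*Pcolce* (chr5:137605103-137613784, minus strand), the enhancer of procollagen C-propeptide removal, stood at 15.8 and 12.2 RPKM in *Cort*-/- and 31.5, 27.9 and 22.5 RPKM in *Cort*+/+ libraries under NX/NG. The highest *Cort*-/- library lay below the lowest *Cort*+/+ library by more than the distance between the *Cort*-/- libraries. The log2 fold change was -0.96 (SE 0.18, limma FDR = 0.223), and the FDR was 0.0584 with limma-voom. Of its exonic bases, 112 (2.93%) are shared with *Fbxo24* on the same strand.

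In the endoplasmic reticulum group, *Plod2* had the largest difference. *P4ha1* (chr10:59323296-59373304, plus strand) was 22.9 and 20.5 RPKM in *Cort*-/- and 24.7, 23.8 and 24.9 RPKM in *Cort*+/+ libraries. The genotypes did not overlap, but the log2 fold change was only -0.18 (SE 0.07, limma FDR = 0.391). *P4ha2* (chr11:54100095-54131665, plus strand) was 8.97 and 8.39 RPKM in *Cort*-/- and 8.42, 8.71 and 8.88 RPKM in *Cort*+/+ libraries. These overlapped throughout, and the 95% interval of the log2 fold change ran from -0.16 to 0.17. *Plod2* (chr9:92542223-92608428, plus strand) was 14.5 and 12.7 RPKM in *Cort*-/- and 22.3, 20.4 and 14.7 RPKM in *Cort*+/+ libraries. *Cort*+/+ replicate 3 nearly met the *Cort*-/- libraries, and the log2 fold change was -0.47 (SE 0.19, limma FDR = 0.408). *Serpinh1* (chr7:99345376-99353239, minus strand) was 249 and 241 RPKM in *Cort*-/- and 262, 263 and 244 RPKM in *Cort*+/+ libraries, with a 95% interval of the log2 fold change from -0.23 to 0.10. The genotypes therefore overlapped for this chaperone, the most abundant transcript of the 10.

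The promoters of these genes are shown where the reference table held them, because prolyl hydroxylase genes are among those known to respond to low oxygen through the core motif of the hypoxia response element. RefSeq promoters on GRCm38.p6, from 250 bases before to 50 after the annotated start, were found for 5 of the 10 genes: *Loxl4*, *P4ha1*, *P4ha2*, *Pcolce* and *Serpinh1*. The letters ACGTG, searched on both strands, occurred in *P4ha1* (16 bases before the start), *P4ha2* (78 bases before and 11 after it) and *Serpinh1* (171 bases before), and in 6447 of 32851 promoters (19.6%) of this length. They did not occur in the windows of *Pcolce* and *Loxl4*, and the heat shock element letters GAANNTTC (7.86% of promoters) occurred in none of the 5. The windows of both prolyl hydroxylase subunits and of *Pcolce*, which held no match, are printed 5′ to 3′ on the strand of the gene, at chr10:59323046-59323345, chr11:54100674-54100973 and chr5:137611355-137611654, with matches to ACGTG or its reverse complement in capitals. Only the letters ACGTG were searched, so other forms of the motif were not counted or marked. A window without a match may hold such forms. The windows of *P4ha2* and *Pcolce* lie inside the positions given above for these genes. Bases upstream of those positions were therefore not searched. A match describes letters and is not evidence of binding.
P4ha1: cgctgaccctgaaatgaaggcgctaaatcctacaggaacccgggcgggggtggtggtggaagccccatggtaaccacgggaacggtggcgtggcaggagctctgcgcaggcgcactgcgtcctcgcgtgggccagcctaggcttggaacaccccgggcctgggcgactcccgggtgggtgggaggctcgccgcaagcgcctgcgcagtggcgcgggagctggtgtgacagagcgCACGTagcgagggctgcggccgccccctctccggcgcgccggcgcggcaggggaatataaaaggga
P4ha2: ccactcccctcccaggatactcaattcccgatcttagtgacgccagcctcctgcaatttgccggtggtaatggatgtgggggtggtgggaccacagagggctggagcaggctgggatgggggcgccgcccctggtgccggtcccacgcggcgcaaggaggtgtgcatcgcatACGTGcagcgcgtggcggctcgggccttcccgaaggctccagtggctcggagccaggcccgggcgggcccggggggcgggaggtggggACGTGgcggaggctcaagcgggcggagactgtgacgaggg
Pcolce: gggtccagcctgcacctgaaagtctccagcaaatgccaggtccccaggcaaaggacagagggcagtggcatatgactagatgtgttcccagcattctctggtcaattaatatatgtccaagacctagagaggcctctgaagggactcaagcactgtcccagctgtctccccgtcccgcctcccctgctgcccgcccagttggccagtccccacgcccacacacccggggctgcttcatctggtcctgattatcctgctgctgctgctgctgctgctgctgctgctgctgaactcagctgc

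After OGD-R, 2 *Cort*-/- libraries were compared with 3 *Cort*+/+ libraries. *Lox*, *Loxl1*, *Pcolce* and *Plod2* were 1.28-fold to 1.56-fold lower in *Cort*-/- BECs, with no overlap between the genotypes. *P4ha1* and *Serpinh1* were also lower without overlap, but by 1.09-fold each. limma called 0 of 15785 genes (percent called, 0) and none of the 10, with 567 genes at an unadjusted p under 0.05, and limma-voom called 1 gene (0.00634%), not one of the 10. At an unadjusted p under 0.05 there were 4 of the 10 lower and 0 higher, where 2.19% of all genes tested were lower and 1.4% higher. The 6 of 10 lower without overlap stand beside 8.39% of all genes tested. The median log2 fold change was -0.24 over the 10 genes and -0.01 over all genes tested.

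*Lox* stood at 10.1 and 14.4 RPKM in *Cort*-/- replicates 1 and 3 after OGD-R, and at 18.8, 17.7 and 17.4 RPKM in *Cort*+/+ replicates 1, 2 and 3. The *Cort*+/+ libraries were close together, and the *Cort*-/- library nearer to them was the one low in ribosomal RNA. The log2 fold change was -0.57 (SE 0.17, limma FDR = 0.999). *Pcolce* stood at 17.3 and 25.4 RPKM in *Cort*-/- and 34.3, 37.3 and 27.8 RPKM in *Cort*+/+ libraries, a log2 fold change of -0.65 (SE 0.21, limma FDR = 0.999). Here too *Cort*-/- replicate 3 was close to the lowest *Cort*+/+ library. *Loxl1* was 10.8 and 13.6 RPKM against 18.4, 18.5 and 14.8 RPKM, and *Plod2* was 14.4 and 14.5 RPKM against 20.3, 18.7 and 16.9 RPKM. Their log2 fold changes were -0.50 (SE 0.16, limma FDR = 0.999) and -0.36 (SE 0.11, limma FDR = 0.999), and only for *Plod2* did the *Cort*-/- libraries coincide.

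The other 6 genes had smaller or more scattered differences after OGD-R. *Loxl2* was 41.2 and 38.4 RPKM in *Cort*-/- and 48.6, 49.6 and 39.7 RPKM in *Cort*+/+ libraries, and *Loxl3* was 7.11 and 9.55 RPKM against 9.43, 11.3 and 9.40 RPKM. In both genes the groups overlapped through 1 *Cort*-/- library. *Loxl4* was 5.38 and 7.38 RPKM in *Cort*-/- and 5.89, 4.42 and 2.72 RPKM in *Cort*+/+ libraries, and the 95% interval of its log2 fold change of 0.59 ran from -0.24 to 1.43. Its mean was thus higher in *Cort*-/- BECs in both environments, with overlapping libraries in both. *P4ha1* (23.7 and 24.4 RPKM against 27.1, 27.2 and 24.6 RPKM), *P4ha2* (8.80 and 10.4 RPKM against 9.70, 9.90 and 7.80 RPKM) and *Serpinh1* (260 and 262 RPKM against 286, 295 and 273 RPKM) had log2 fold changes between -0.13 and 0.08.

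The 2 *Cort*-/- libraries after OGD-R differed from each other, and the values above depend on which is used. Without the 2 libraries low in ribosomal RNA, the log2 fold changes were -0.79 for *Lox*, -0.61 for *Loxl1*, -0.53 for *Loxl3*, -0.89 for *Pcolce* and -0.30 for *Plod2*. Leaving out each library in turn, *Lox* ranged from -0.82 to -0.31 and *Pcolce* from -0.92 to -0.37. No count of the 10 is given for fits that leave 1 library in a group. The number of the 10 at an unadjusted p under 0.05 was 1 without *Cort*+/+ replicate 2 and 2 without *Cort*+/+ replicate 1. The number of all genes at that level also changed with the library left out. *Cort*-/- replicate 1 also carried epithelial transcripts, with *Krt8* at 11.9 RPKM and *Krt18* at 20.9 RPKM, as did *Cort*+/+ NX/NG replicate 2, with *Krt8* at 18.7 RPKM and *Krt18* at 26.0 RPKM. The 7 epithelial and choroid plexus markers summed to 1.97 to 14.2 RPKM in the other libraries, and their part in the results was not tested. In the NX/NG comparison 5 of the 10 were at an unadjusted p under 0.05 without *Cort*+/+ replicate 2. The number of all genes at that level changed there too with the library left out, so this count does not single out the 10.

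**Figure D3:**
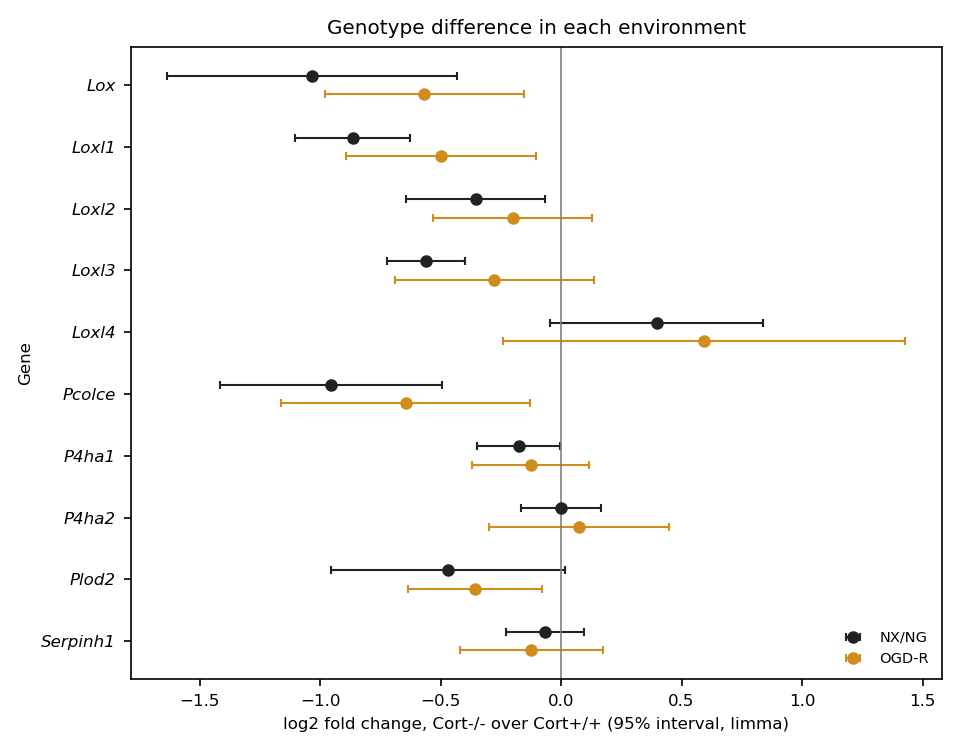
log2 fold change of *Cort*-/- over *Cort*+/+ (x axis) with its 95% interval from limma, for each of the 10 genes (y axis), under NX/NG and after OGD-R. For *Lox*, *Loxl1*, *Pcolce* and *Plod2* the OGD-R interval lies below 0, and the 6 genes with an NX/NG interval below 0 are *Lox*, *Loxl1*, *Loxl2*, *Loxl3*, *Pcolce* and *P4ha1*.

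The remaining genes of the pathway were examined as a list of 25 genes for other modifying enzymes, folding helpers and procollagen proteinases, 21 of which could be tested. Under NX/NG 7 of the 21 were lower in *Cort*-/- BECs at an unadjusted p under 0.05 and 0 higher, beside 7.51% of all genes tested lower and 5.03% higher, with a median log2 fold change of -0.11. *Adamts2*, which removes the N-propeptide of procollagen I, had the lowest p: it stood at 1.5 and 1.16 RPKM in *Cort*-/- and 2.68, 2.62 and 2.67 RPKM in *Cort*+/+ libraries (log2 fold change -0.96, SE 0.14, limma FDR = 0.178; limma-voom FDR = 0.0270). *Adamts14*, a related N-proteinase, followed at -0.76 (SE 0.13, limma FDR = 0.196), and *P3h4*, a helper of lysyl hydroxylation, at -0.59 (SE 0.15, limma FDR = 0.297). *P4hb*, the common beta subunit of the prolyl hydroxylases, was 274 to 301 RPKM in the 5 NX/NG libraries of both genotypes. After OGD-R 1 of 21 was lower (*Creb3l1*, -0.31) and 0 higher, beside 2.19% and 1.4% of all genes tested.

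Among 8 collagen and elastin genes whose products these enzymes crosslink, 7 were tested, and 4 of the 5 fibrillar collagen genes were lower in *Cort*-/- BECs under NX/NG at an unadjusted p under 0.05, beside 7.51% of all genes tested. *Col1a1* stood at 67.5 and 46.5 RPKM in *Cort*-/- and 155, 166 and 113 RPKM in *Cort*+/+ libraries. With a log2 fold change of -1.35 (SE 0.23, limma FDR = 0.207), it was called by limma-voom (FDR = 0.0415), as was *Col1a2* (-1.41, SE 0.24, limma-voom FDR = 0.0415). *Col3a1* (-1.04) and *Col5a1* (-0.90) were the other two. *Col5a2*, the fifth, was 90.1 and 81.1 RPKM in *Cort*-/- and 70.1, 99.7 and 73.1 RPKM in *Cort*+/+ libraries, which overlapped (0.10, limma FDR = 0.849). *Col4a1*, of the basement membrane, was 504 to 565 RPKM in *Cort*+/+ and 578 and 580 RPKM in *Cort*-/- libraries. Per unit of *Col1a1*, *Col1a2* and *Col3a1* together, the summed lysyl oxidase RPKM was 0.534 and 0.664 in *Cort*-/- and 0.318 to 0.385 in *Cort*+/+ libraries under NX/NG, and 0.333 and 0.376 against 0.298 to 0.366 after OGD-R. The ratio was thus higher in both *Cort*-/- libraries under NX/NG and overlapped after OGD-R.

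Of 12 hypoxia-inducible genes outside the 10, 3 were lower in *Cort*-/- BECs under NX/NG at an unadjusted p under 0.05 (*Ldha*, -0.35; *Vegfa*, -0.74; *Hk2*, -0.57) and 0 higher, beside 7.51% and 5.03% of all genes tested, with a median log2 fold change of -0.04. Of 7 heat shock genes tested, 1 was higher (*Hsph1*, 0.23) and 1 lower (*Hspa1b*, -0.62) at an unadjusted p under 0.05. These stand beside 5.03% of all genes tested higher and 7.51% lower. Of the 10 genes, those of the endoplasmic reticulum group, *Plod2*, *P4ha1*, *P4ha2* and *Serpinh1*, had log2 fold changes under NX/NG of -0.47, -0.18, 0.00 and -0.07. The others of the 10 lay between -1.03 (*Lox*) and 0.40 (*Loxl4*).

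Of the markers of mural cells, those of pericytes that could be tested were lower in the same *Cort*-/- libraries as the crosslinking genes, whereas those of smooth muscle overlapped between the genotypes. Under NX/NG the 6 pericyte markers summed to 7.59 and 10.2 RPKM in *Cort*-/- and 17.9 to 21.4 RPKM in *Cort*+/+ libraries. The 3 that could be tested were lower at an unadjusted p under 0.05, beside 7.51% of all genes tested: *Cspg4* (-1.91, limma-voom FDR = 0.0268), *Pdgfrb* (-1.001, limma-voom FDR = 0.0415) and *Rgs5* (-0.86). *Kcnj8*, *Abcc9* and *Vtn* were near 0 in every library, at most 0.0353, 0.0204 and 0.574 RPKM. The 7 fibroblast markers summed to 5.48 and 5.87 RPKM in *Cort*-/- and 7.20 to 10.8 RPKM in *Cort*+/+ libraries, with *Lum*, *Dpt* and *Pi16* at most 0.149, 0.0494 and 0.0915 RPKM. *Pdgfra* went the other way, at 0.485 and 0.706 RPKM in *Cort*-/- and 0.366, 0.319 and 0.320 RPKM in *Cort*+/+ libraries, too low to be tested. Sums of the 5 leptomeningeal markers overlapped, at 7.33 and 8.54 RPKM in *Cort*-/- and 7.61 to 11.8 RPKM in *Cort*+/+ libraries. Of the 3 tested, *Ptgds* was higher (0.97) and *Foxc2* lower (-0.83) at an unadjusted p under 0.05, beside 5.03% and 7.51% of all genes tested. *Aldh1a2* overlapped between the genotypes (-0.97). After OGD-R the pericyte sums were 15.3 and 17.6 RPKM against 17.4 to 22.9 RPKM, and the fibroblast sums 7.22 and 7.35 RPKM against 9.29 to 11.8 RPKM. The smooth muscle sums overlapped between genotypes in both environments. Under NX/NG 0 of the 4 smooth muscle markers tested had an unadjusted p under 0.05 (*Acta2*, -0.22, *Tagln*, -0.22, *Cnn1*, -0.01 and *Myh11*, 0.29), beside 7.51% of all genes tested lower and 5.03% higher. The part of these cells, and of the higher endothelial sum, in the differences of *Lox*, *Loxl1*, *Loxl3* and *Pcolce* was not tested.

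**Figure D4:**
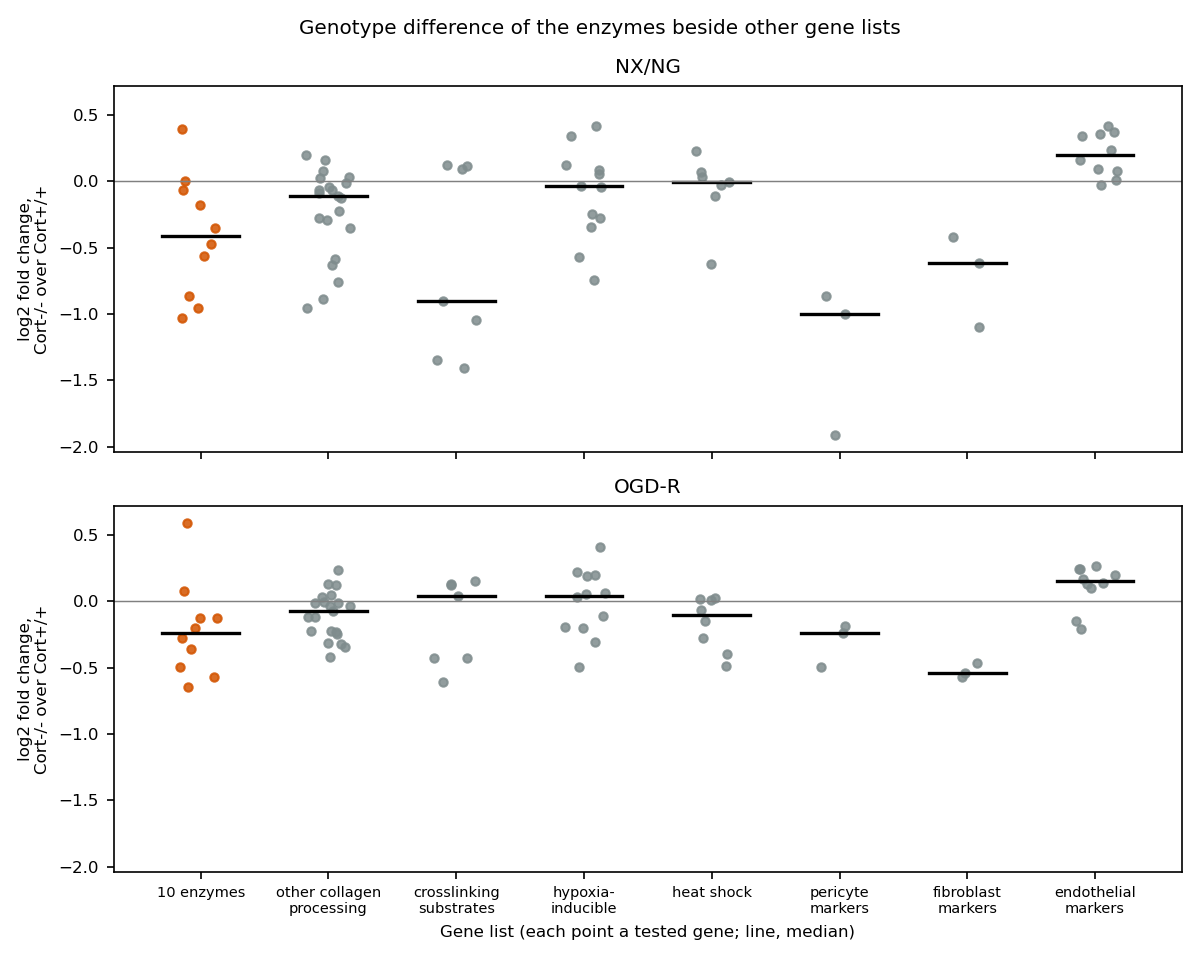
log2 fold change of *Cort*-/- over *Cort*+/+ (y axis) for every tested gene of 8 lists (x axis), under NX/NG (upper panel) and after OGD-R (lower panel); lines are list medians. The 10 enzymes have a median of -0.41 under NX/NG and -0.24 after OGD-R, beside -0.90 and 0.04 for the crosslinking substrates and -1.001 and -0.24 for the pericyte markers.

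Whether OGD-R moved these genes was asked within each genotype, on reads of the 27321 genes in both tables scaled together, since the authors had scaled the tables apart; the *Cort*-/- and *Cort*+/+ NX/NG libraries are the same as above. In *Cort*+/+ BECs, limma called 0 of 15749 genes (percent called, 0), and limma-voom 0. An unadjusted p under 0.05 was found for 1044 genes, 2 of them among the 10 and higher, where 4.25% of all genes tested were higher and 2.38% lower. *Loxl3* was 8.06, 7.60 and 7.75 jointly scaled RPKM under NX/NG and 9.18, 11.03 and 9.17 after OGD-R, the only gene of the 10 that was higher without overlap, beside 7.8% of all genes (log2 fold change 0.32, SE 0.09, limma FDR = 0.725). *Loxl1* was 14.5, 13.3 and 12.6 under NX/NG and 17.9, 18.1 and 14.4 after OGD-R, where replicate 3 lay inside the NX/NG range (0.31, SE 0.11, limma FDR = 0.740). The other 8 lay between -0.25 (*Loxl4*) and 0.22 (*Pcolce*), and the hydroxylase genes *P4ha1*, *P4ha2* and *Plod2* between -0.09 and 0.04. The number of the 10 at an unadjusted p under 0.05 was 1 without *Cort*+/+ OGD-R replicate 1, without OGD-R replicate 2 or without NX/NG replicate 2. Leaving out each library in turn, the number of all genes at that level ranged from 713 to 1420.

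In *Cort*-/- BECs, limma also called 0 of 15682 genes (percent called, 0) and limma-voom 0. An unadjusted p under 0.05 was found for 612 genes, 3 of them among the 10 and higher, where 2.28% of all genes tested were higher and 1.62% lower. *Loxl1* was 7.94 and 6.92 jointly scaled RPKM in NX/NG replicates 1 and 2, and 10.6 and 13.3 in OGD-R replicates 1 and 3 (log2 fold change 0.67, SE 0.16, limma FDR = 0.946). *Lox* was 8.12 and 7.22 under NX/NG and 9.94 and 14.1 after OGD-R (0.62, SE 0.20, limma FDR = 0.946), and *Loxl3* was 5.25 and 5.34 against 7.0 and 9.36 (0.60, SE 0.17, limma FDR = 0.946). In all 3 genes the OGD-R library low in ribosomal RNA, replicate 3, was the highest. *Pcolce*, at 16.2 and 12.6 under NX/NG and 17.1 and 24.8 after OGD-R, had a log2 fold change of 0.53 (SE 0.24, limma FDR = 0.946). In total 6 of the 10 were higher without overlap, beside 18% of all genes tested, and *Loxl2* (0.20) and *Serpinh1* (0.02) were the others. The other 4, *Loxl4*, *P4ha1*, *P4ha2* and *Plod2*, lay between -0.06 and 0.09. Without OGD-R replicate 3, *Loxl1* stood at 0.52, *Loxl3* at 0.40, *Lox* at 0.37 and *Pcolce* at 0.26. Leaving out any library here leaves 1 in a group, so no counts are given for these fits.

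**Figure D5:**
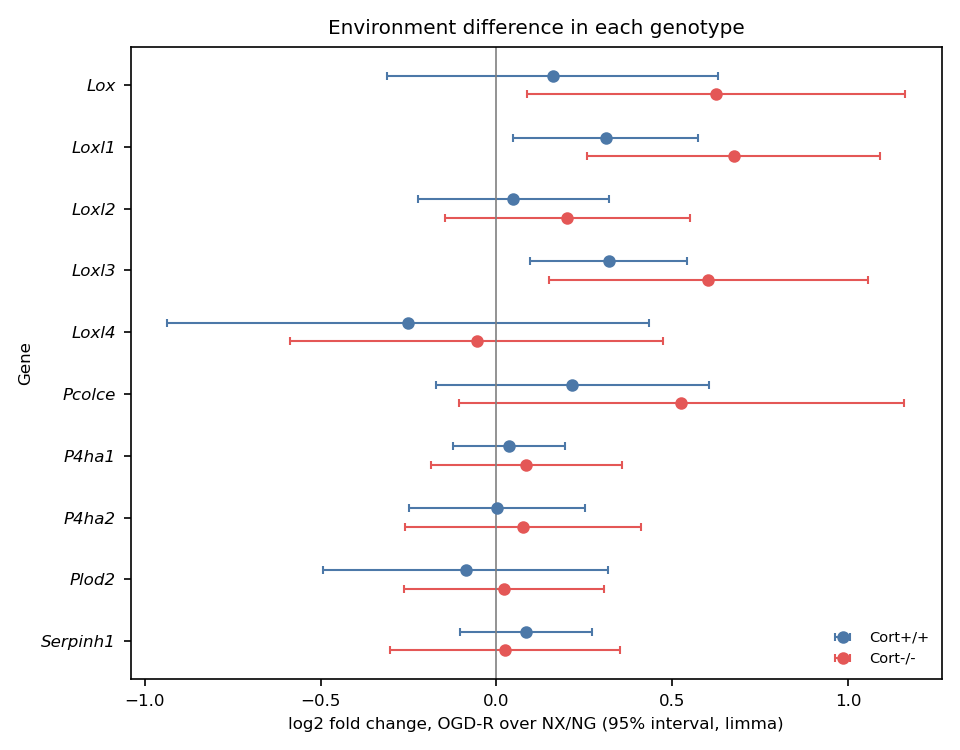
log2 fold change of OGD-R over NX/NG (x axis) with its 95% interval from limma, for each of the 10 genes (y axis), in *Cort*+/+ and *Cort*-/- BECs. *Lox*, *Loxl1* and *Loxl3* in *Cort*-/- BECs and *Loxl1* and *Loxl3* in *Cort*+/+ BECs have intervals above 0.

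The interaction of genotype and environment asks whether the step from NX/NG to OGD-R differed between genotypes. limma called 0 of 15712 genes (percent called, 0), limma-voom 0, and none of the 10 had an unadjusted p under 0.05 (296 genes or 1.88% did, and 234 by limma-voom). The largest values were for *Lox*, at 0.46 (SE 0.32, 95% interval from -0.27 to 1.19, limma FDR of 0.9998), and for *Loxl1*, at 0.36 (SE 0.19, 95% interval from -0.08 to 0.81). The larger steps of *Lox* and *Loxl1* in *Cort*-/- BECs were therefore not shown to differ from those in *Cort*+/+ BECs. *P4ha1*, *P4ha2* and *Serpinh1* had interaction values between -0.06 and 0.07, with 95% intervals from -0.19 to 0.29, from -0.30 to 0.45 and from -0.32 to 0.20. Leaving out each library in turn, the interaction value of *Loxl1* ranged from 0.21 to 0.52 and that of *Loxl3* from 0.08 to 0.49. No count of the 10 is given here for fits that leave 1 library in a group. Without *Cort*+/+ NX/NG replicate 3, 1 of the 10 had an unadjusted p under 0.05. The number of all genes at that level also changed with the library left out, so this count does not single out the 10.

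Across the 10 libraries, Pearson correlations of log2 jointly scaled RPKM among *Lox*, *Loxl1*, *Loxl3* and *Pcolce* were 0.96 for both *Lox* and *Loxl1* with *Pcolce*, 0.94 for *Loxl1* with *Loxl3*, 0.92 for *Lox* with *Loxl1*, 0.88 for *Loxl3* with *Pcolce* and 0.83 for *Lox* with *Loxl3*. Some pairs with other genes were as high, at 0.90 for *P4ha1* with each of *Loxl1*, *Loxl2* and *Pcolce* and 0.88 for *Loxl2* with *Pcolce*. *Plod2* was at 0.82 with *Lox* and 0.45 with *Loxl3*. *Loxl4* went against the other 4 lysyl oxidase genes, at -0.17 to -0.43, and was at 0.71 with *P4ha2*, which in turn was at 0.03 with *Lox*. The libraries share their groups and scaling, so these values describe the pattern and are given with no test. Over 13778 genes, the one most like *Pcolce* was *Cd248*, which encodes endosialin, a surface protein of pericytes and fibroblasts (0.99). The closest were *Flrt2* for *Lox* (0.98), *Lipg*, which encodes endothelial lipase, for *Loxl1* (0.99), *Wnt5a*, a secreted Wnt ligand, for *Loxl2* (0.97), *Arhgap4* for *Loxl3* (0.97) and *Mknk2* for *Loxl4* (0.99). For the genes of the endoplasmic reticulum they were *Septin9* for *P4ha1* (0.95), *Cdkn2b*, an inhibitor of cyclin-dependent kinases, for *P4ha2* (0.96), *Npr3*, a natriuretic peptide receptor, for *Plod2* (0.97) and *Fdft1*, squalene synthase, for *Serpinh1* (0.95). The 10th most alike gene was still at 0.97 for *Pcolce*, the highest such value, and at 0.89 for *P4ha2*, the lowest. A closest gene is therefore not set apart from others like it.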

How the data were processed

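RNA-seq libraries of BECs, each from a pool of 3 mice, were grouped by the genotype and treatment of the labels, and p-values measure the spread between these pools. The authors used their reanalyzerGSE pipeline without excluding genes of low expression, and edgeR is named in the submitters' processing notes; aligner, genome build and annotation are not given in the sources used here. The values deposited by the authors are RPKM, scaled over the 5 libraries of a table. Files of the authors' own calls, and the fold change and p columns of the tables, were not used, nor were samples without a column (*Cort*-/- replicate 3 under NX/NG and 2 after OGD-R). Table lengths equal the exon unions of GENCODE vM21 on GRCm38 for 98.2% of matched genes, the 10 described included, and positions are from there.

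RPKM times length lay within 0.05 of whole multiples of 1 step, which gave the reads; joint scaling used the trimmed mean of M values. limma 3.58.1 in R 4.3.3 was fitted to log2(RPKM + 0.1), with a trend and only the groups compared, over genes whose mean reached 0.5 RPKM, and adjusted by Benjamini-Hochberg over all genes tested; fold changes on this scale understate those of low genes. Fits were tried on simulated data with the same spread for every gene and no library low in ribosomal RNA. That setting differs from these data, so it does not give error rates for them. The 10 genes and all lists were chosen with earlier results of these data known. All 10 are named, with the list members of lowest p as examples; *P4hb*, *Col4a1*, *Col5a2* and the markers given with values were picked after these were seen.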

Additional observations from a re-analysis of the deposited data

How the results depend on the processing

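Of 740 values of single genes under alternatives, 709 kept their direction and side of the threshold, 29 reversed, and 2 passed the threshold (*Loxl1* and *Loxl3* with limma-voom under NX/NG, which called 54 genes, 2 of the 10 among them). The count of genes called, 0 in each comparison with limma, became 3 under NX/NG and 5 after OGD-R with all groups in one fit, 1 with limma-voom and 2 with a pseudocount of 1 after OGD-R, 1 with a pseudocount of 1 and 9 with no filter between environments in *Cort*+/+ BECs, 1 in *Cort*-/- BECs with all groups in one fit, and 3 with no filter for the interaction, where leaving out each library in turn gave 0 to 2, the 2 without *Cort*-/- OGD-R replicate 1.

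The reversed values belonged to 6 genes, *P4ha2*, *Loxl4*, *Plod2*, *Loxl2*, *Lox* and *P4ha1*, with log2 fold changes between -0.25 (*Loxl4*) and 0.19 (*Loxl4*) in those comparisons. *P4ha2* was at -0.0091 under NX/NG with quantile normalization and at -0.0098 between environments in *Cort*+/+ BECs. Without the libraries low in ribosomal RNA, or with a term for them, *P4ha2* was at -0.044 between environments in *Cort*+/+ and at -0.042 in *Cort*-/- BECs. *Loxl4* was at 0.0093 between environments in *Cort*-/- BECs on the deposited RPKM without joint scaling. Leaving out each library in turn, the log2 fold change of *P4ha2* ranged from -0.047 to 0.049 under NX/NG, from -0.045 to 0.20 after OGD-R, from -0.059 to 0.11 and from -0.042 to 0.19 between environments in *Cort*+/+ and *Cort*-/- BECs, and from -0.044 to 0.19 for the interaction. Between environments in *Cort*+/+ BECs *Lox* ranged from -0.074 to 0.30, *Loxl2* from -0.027 to 0.15, *Loxl4* from -0.50 to 0.043 and *Plod2* from -0.27 to 0.035, and in *Cort*-/- BECs *Loxl4* ranged from -0.28 to 0.16 and *Plod2* from -0.066 to 0.11. For the interaction *Loxl4* ranged from -0.10 to 0.44, *P4ha1* from -0.025 to 0.12 and *Plod2* from -0.013 to 0.29. The cause was not tested.

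Deviations from the group mean of libraries with one replicate number correlated at -0.40 to 0.13. With so few libraries in a group, these values cannot decide whether the numbers pair the libraries. With the replicate block, limma called 0 genes in each of the 4 comparisons where it could be fitted. The number of the 10 at an unadjusted p under 0.05 stayed at 6 under NX/NG and was 0 in place of 4 after OGD-R. The share of all genes at that level is not given for these fits, so these counts do not single out the 10. Between environments in *Cort*-/- BECs no paired fit was possible, because the groups share only replicate 1. Fits that leave 1 library in a group assume that it varies like the others.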
